A study of Mus musculus with 4 samples.

Results

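Small nucleolar RNA host genes are genes whose introns hold small nucleolar RNAs (snoRNAs), and 10 of them were examined in mouse MLL-AF9 leukaemic cells. They are Snhg1, Snhg3, Snhg4, Snhg5, Snhg6, Snhg7, Snhg8, Snhg11, Snhg12 and Gas5, taken by symbol from 16545 symbols (18061 transcripts) in the authors' deposited table. Each had 1 transcript there. The symbols were selected on their mean normalised reads in the OHT and EtOH groups, so every value below that compares these groups for the 10 genes is a description and carries no test.

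The cells were C57BL/6 leukaemic cells of the genotype Ring1a-/-;Ring1bf/f Cdkn2a-/-, carrying the MLL-AF9 fusion, taken from mouse bone marrow and grown in liquid culture. One group of 2 samples was treated with EtOH (ethanol) for 72 h and the other group of 2 with OHT (hydroxytamoxifen in common usage) for 72 h. By these labels both groups carried the Ring1a-/- and Cdkn2a-/- alleles and the fusion. The sample titles add RingKO for the OHT group only. The labels do not name the recombinase that acts on the floxed Ring1b allele. RING1A and RING1B are the ubiquitin ligases of Polycomb repressive complex 1, and the series title asks what that complex does for leukaemic cell identity. Effects of OHT itself and of RING1B loss cannot be told apart with these 2 groups.

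A host gene is transcribed as 1 long RNA. Its introns are cut out and trimmed to snoRNAs, which guide chemical modification or cleavage of ribosomal RNA: box C/D snoRNAs direct 2'-O-methylation and box H/ACA snoRNAs direct pseudouridylation. The spliced exons of most non-coding host genes encode no conserved protein. They mostly begin with the pyrimidine tract that also starts ribosomal protein mRNAs (a 5' TOP tract). Many are short-lived because ribosomes engage them and nonsense-mediated decay removes them. Poly(A)-selected libraries count the spliced exons, so the values below are host RNA and not the snoRNAs themselves.

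In the RefSeq annotation of GRCm38.p6, 8 snoRNA genes lie inside Snhg1, 8 inside Gas5, 4 inside Snhg12, 2 each inside Snhg3, Snhg5, Snhg7 and Snhg11, and 1 each inside Snhg4, Snhg6 and Snhg8. The cargo of Snhg12 is of both classes, Snora16a, Snora44 and Snora61 with Snord99. Snhg6 carries Snord87. As examples of box C/D cargo, these snoRNAs are shown 5' to 3' from the GENCODE transcripts, with the letters TGATGA of box C and the last CTGA of box D in capitals.
Snord99, in Snhg12: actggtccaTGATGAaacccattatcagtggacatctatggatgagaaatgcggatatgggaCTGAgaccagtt
Snord87, in Snhg6: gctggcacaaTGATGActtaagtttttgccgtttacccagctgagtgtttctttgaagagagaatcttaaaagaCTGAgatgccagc
Both have their boxes near the 2 ends, which pair with each other in the folded RNA.

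The start sites of the hosts are shown because a sequence at the start was not used to choose the genes. RefSeq start sites were at hand for 8 of the 10 genes, 9 starts in all, in build GRCm38.p6. Each line gives the 40 bases before the annotated start and the first 20 bases of the transcript, on the strand of the gene. Capitals mark TATAAA or TATATA lying wholly 40 to 15 bases before the start, and a pyrimidine run, a C followed by at least 4 further C or T bases, that begins within 10 bases of the start.
Snhg12 (chr4:132308638-132308697, + strand): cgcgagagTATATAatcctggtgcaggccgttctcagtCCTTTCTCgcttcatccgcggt
Snhg5 (chr9:88522878-88522937, - strand): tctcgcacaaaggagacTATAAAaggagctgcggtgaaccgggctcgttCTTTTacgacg
Snhg7 (chr2:26640225-26640284, - strand): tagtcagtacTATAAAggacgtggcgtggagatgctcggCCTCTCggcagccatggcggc
Snhg8 (chr3:123508317-123508376, - strand): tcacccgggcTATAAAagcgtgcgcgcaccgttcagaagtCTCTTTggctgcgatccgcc
Gas5, downstream start (chr1:161035126-161035185, + strand): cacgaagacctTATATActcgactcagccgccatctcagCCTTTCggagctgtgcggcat
Snhg3 (chr4:132353667-132353726, - strand): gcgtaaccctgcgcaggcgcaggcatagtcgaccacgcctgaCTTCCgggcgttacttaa
Snhg1 (chr19:8723447-8723506, + strand): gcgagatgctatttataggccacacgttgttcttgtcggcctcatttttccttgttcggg
Snhg11 (chr2:158375673-158375732, + strand): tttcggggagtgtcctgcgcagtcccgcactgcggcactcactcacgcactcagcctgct
Gas5, upstream start (chr1:161034561-161034620, + strand): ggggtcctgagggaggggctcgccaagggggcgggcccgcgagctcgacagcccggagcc
A TATA motif stood at 5 of the 9 starts, against 2.74% of 32851 starts in the whole reference and 4.55% of 66 ribosomal protein gene starts. A pyrimidine run stood at 6 of 9, against 30.7% and 54.5%. The same 5 starts, those of Snhg12, Snhg5, Snhg7, Snhg8 and the downstream start of Gas5, held both, as did 0.971% of all starts. The starts of Snhg1 and Snhg11 and the upstream start of Gas5 held neither motif. The E-box CACGTG, which reads the same on both strands and was sought 250 bases before to 50 after the start, was in none of the 9, against 7.15% of all starts. These are matches of letters around annotated starts, whose exact position may differ from the start used in these cells.

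With OHT, 9 of the 10 host RNAs had a lower mean than with EtOH and 1, Snhg11, a higher mean. The lower 9 ran from 1.57-fold lower for Snhg3 to 4.97-fold lower for Snhg12 in the authors' deposited table, with a median of 1.98-fold. Over all 10 the median log2 fold change (OHT over EtOH) was -0.95, beside -0.12 for the 8372 symbols with a mean of at least 50 in that table, of which 59.2% were negative. Of those symbols, 13.9% had a log2 fold change at or below that of Snhg3. For each of the 9, both OHT libraries lay below both EtOH libraries, a pattern found in 24.6% of all transcripts and in 38.7% of transcripts with a mean of at least 50. For Snhg11 both OHT libraries lay above both EtOH libraries, a pattern found in 26.4% of all transcripts and in 24.4% of those with a mean of at least 50.

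The authors' deposited test called 3 of the 10 lower, Snhg12, Snhg5 and Snhg4, and none higher, at an adjusted p under 0.05; Snhg11 was the 1 host higher at an unadjusted p under 0.05. Over all transcripts it called 5.48%, 1.85% lower and 3.62% higher. Limma-voom, fitted to reads per library solved from the deposited means, called 6 of the 10 lower and Snhg11 higher, beside 5.49% lower and 9.72% higher of the 11338 transcripts it fitted. Its count of lower hosts ranged from 2, when OHT library A was dropped, to 9, when EtOH library A was dropped, with 3 and 4 for the B libraries of EtOH and OHT. Since these calls come from the contrast that chose the genes, nothing is read from the counts.

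In each treatment the letter A names the library with the larger size factor and B the other. The letters have no link to the numbering in the labels. Each value per library is the solved read count divided by the size factor. The libraries held 6255320 and 3841243 reads (EtOH A and B) and 5687967 and 4509718 reads (OHT A and B). The hosts had between 52 and 1149 reads in a library. The labels leave unsaid if samples of 1 treatment had separate origins, so the spread between them may be technical. Read counts grow with transcript length, so levels are compared for 1 gene between libraries and never between genes. In bulk RNA, fewer cells with a host RNA and less of it per cell cannot be told apart.

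**Figure D1:**
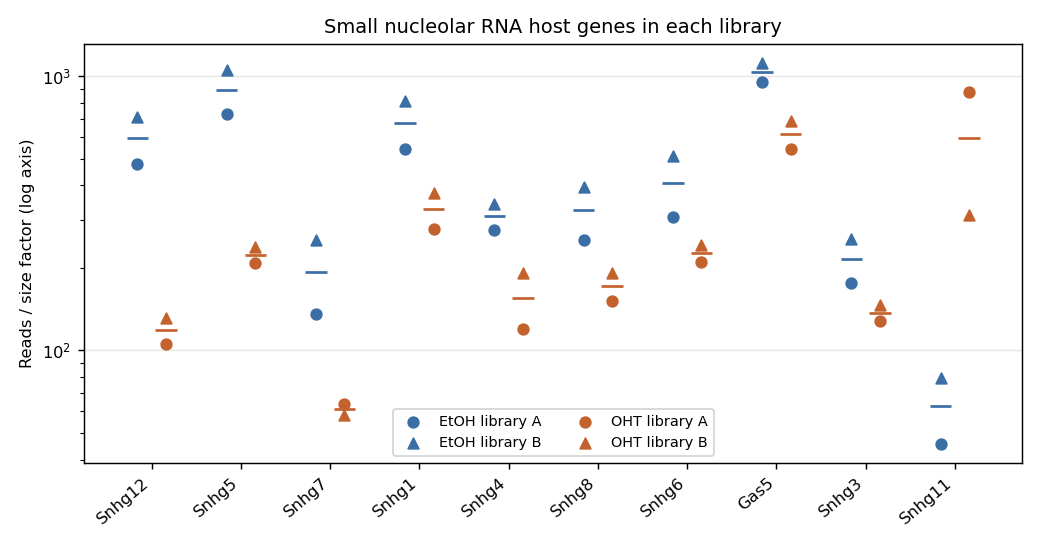
Reads divided by the size factor (log axis) of each host gene in the EtOH libraries (blue) and OHT libraries (orange), circles for library A and triangles for library B, bars for the mean of the 2; genes are ordered by fold change. For 9 genes both orange points sit below both blue points, and for Snhg11 both sit above.

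Snhg12, whose introns hold 4 snoRNAs, showed the lowest fold change of the 10. Its values were 478 and 711 for the EtOH libraries, A first as in all such pairs below, and 106 and 132 for the OHT libraries. The lowest EtOH value was thus well above the highest OHT value. The authors' deposited means were 596 and 120, a log2 fold change of -2.31, and limma-voom gave -2.30 ± 0.30 (SE, n = 2 per group). Of symbols with a mean of at least 50, 0.143% had a value as low or lower.

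Snhg5, a host of U50-type box C/D snoRNAs, followed. Its 4 values were 725 and 1053 with EtOH and 207 and 238 with OHT. The 2 OHT libraries were close to each other, and the spread lay mainly between the EtOH libraries. The authors' deposited table lists 890.1 and 224 (log2 fold change -1.99), and limma-voom gave -1.97 ± 0.26 (SE). Values this low or lower were found for 0.251% of symbols with a mean of at least 50.

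Snhg7, which carries Snora43 and Snora17, was at 135 and 253 with EtOH and at 63.8 and 58.1 with OHT. It was the host with the fewest reads among the 9 and the one whose EtOH libraries differed most. The deposited means of the authors were 195 and 61.9, 3.15-fold lower with OHT, and the authors' test did not call it; limma-voom gave a log2 fold change of -1.53 ± 0.38 (SE).

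Snhg1, host of U22 (Snord22) and 7 further annotated snoRNA genes, was at 541 and 814 with EtOH and at 277 and 376 with OHT. Snhg4, the host of Snora74a, was at 274 and 342 with EtOH and at 119 and 191 with OHT. Both were near 2-fold lower in the authors' deposited table, 2.07-fold for Snhg1 and 1.98-fold for Snhg4, and only Snhg4 was called. The SEs of their limma-voom log2 fold changes were 0.27 and 0.29. In both genes EtOH library A, the lower of its pair, stood above OHT library B, the higher of its pair.

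Snhg8, host of Snora24, was at 253 and 395 with EtOH and at 152 and 192 with OHT, 1.88-fold lower in the authors' deposited table. Snhg6, host of Snord87, was at 308 and 510.4 with EtOH and at 210.0 and 242 with OHT, 1.81-fold lower. Snhg3, host of the U17 snoRNAs Snora73a and Snora73b, which act in cleavage of the ribosomal RNA precursor, was at 177 and 255 with EtOH and at 128 and 146 with OHT, 1.57-fold lower. In these 3 genes EtOH library A stood, on this linear scale, nearer to the OHT libraries than to EtOH library B. The same held for Snhg1 and Snhg7, and the authors' test called none of these genes. Without EtOH library B the log2 fold changes of Snhg8, Snhg6 and Snhg3 were -0.55, -0.44 and -0.36, against -0.91, -0.85 and -0.65 with all libraries.

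Gas5, named for its rise in growth-arrested cells and a host of 8 annotated snoRNAs, had the most reads of the 10. It was at 953 and 1116 with EtOH and at 543 and 684 with OHT. Its SD between libraries of 1 treatment, pooled over both treatments, was the smallest of the 10 at 0.20 on the log2 scale, although 5 other hosts had closer OHT libraries. The authors' deposited means of 1035 and 615 are 1.68-fold lower with OHT, and limma-voom gave a log2 fold change of -0.76 ± 0.22 (SE). Its 2 annotated starts cannot be told apart in these counts.

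Snhg11, a host RNA best known from brain, was the exception. It was at 45.6 and 79.4 with EtOH and at 877 and 311 with OHT. Both OHT values were far above both EtOH values, but OHT library A stood well above library B. The authors' deposited table gives means of 63.6 and 595, 9.36-fold higher with OHT, without a call. The limma-voom log2 fold change was 3.18 ± 0.56 (SE), the widest error of the 10, and the log2 ratio of means was 2.30 when OHT library A was dropped and 3.79 when library B was. Of symbols with a mean of at least 50, 0.657% had a fold change as high or higher. The transcript carries a protein-coding accession in the deposited table, while the RefSeq annotation at hand lists the gene as a long non-coding RNA.

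**Figure D2:**
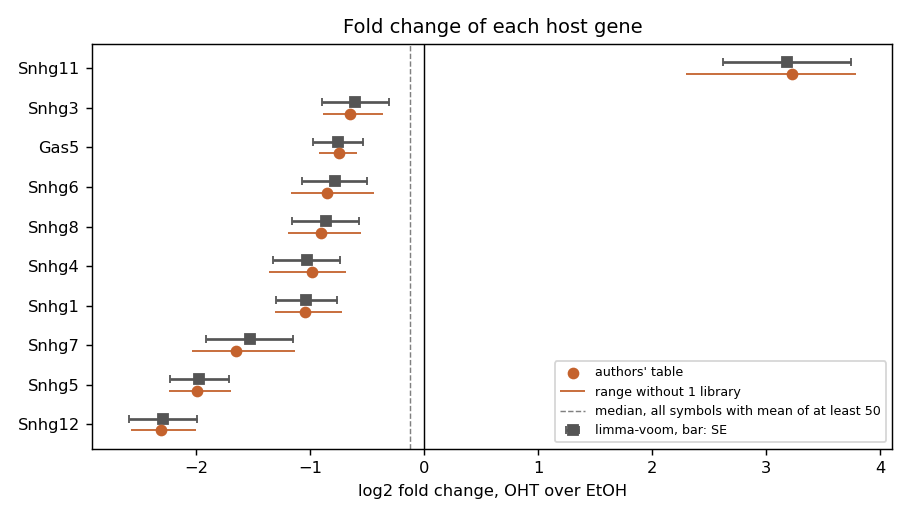
Log2 fold change (OHT over EtOH, x axis) of each host gene: orange points are the authors' values with the range of values when 1 library is left out, grey squares are limma-voom estimates with their SE, and the dashed line marks the median of all symbols with a mean of at least 50 (-0.12). All ranges stay on their side of 0, which follows from groups that do not overlap, and they reach -2.57 for Snhg12 and 3.79 for Snhg11.

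Summed over the 9 lower genes, host RNA came to 3844 (A) and 5449 (B) reads per size factor with EtOH, against 1807 (A) and 2260 (B) with OHT. With Snhg11 added, the sums were 3889 and 5529 with EtOH and 2684 and 2571 with OHT. The groups did not overlap in either sum, which for the 9 follows from the same order in each gene.

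The 2 EtOH libraries differed from each other in 1 direction for all 10 hosts. Each was higher in EtOH library B than in EtOH library A, by a log2 difference of 0.23 (Gas5) to 0.90 (Snhg7) with a median of 0.58. Among the 8378 transcripts with a mean of at least 50, 43.2% were higher in library B and the median difference was -0.08. This comparison within a treatment was not itself used in choosing the genes. Both libraries enter the EtOH mean that was used, so it is not independent of that choice. Moreover, 2 libraries allow no test. In the OHT libraries 8 of the 10 hosts were higher in B than in A, as were 57.8% of those transcripts, with Snhg7 and Snhg11 the other way. By the naming, library B had the smaller size factor in each treatment, and EtOH library B had the fewest reads of all. Without it the median log2 fold change of the 10 hosts was -0.68, and without EtOH library A it was -1.18. The part of this library difference in the fold changes was not tested.

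**Figure D3:**
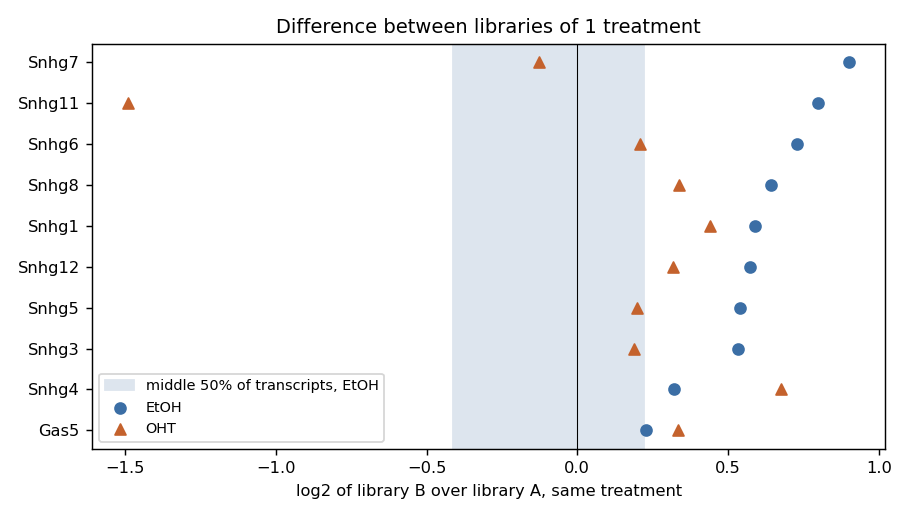
Log2 of library B over library A for each host gene within EtOH (blue circles) and within OHT (orange triangles); the shaded band holds the middle 50% of all transcripts with a mean of at least 50 in EtOH (-0.41 to 0.22). All 10 blue points lie to the right of 0, and all but that of Gas5 lie more than 0.3 to the right.

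Genes that work with snoRNAs were followed in lists. Of 12 other non-coding hosts measured, 10 had a lower mean with OHT, and in these 10 both OHT libraries lay below both EtOH libraries, as in 24.6% of all transcripts and 38.7% of those with a mean of at least 50. None passed the authors' test in either direction (4 were lower and 0 higher at an unadjusted p under 0.05), and limma-voom called none. Their median log2 fold change was -0.98, beside -0.12 for all symbols with a mean of at least 50. Zfas1 was at 395 and 611 with EtOH and at 218 and 306 with OHT, and Snhg20 at 238 and 395 with EtOH and at 207 and 189 with OHT. Chosen after their values were seen, Snhg15 was 2.24-fold and Dancr 2.13-fold lower in the authors' deposited table. The 2 exceptions, likewise chosen afterwards, were barely measured: Rian, an imprinted host RNA, had 0 reads with EtOH and 14 with OHT, and Snhg18 had 0 and 1. Among the 10 lower hosts, Snhg9 and Snhg10 also had few reads. Snhg9 had 8 and 12 with EtOH and 2 and 5 with OHT. Snhg10 had 16 and 9 with EtOH and 13 and 7 with OHT. None of the 12 annotated starts of these hosts held the TATA motif and 5 held a pyrimidine run.

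Among the proteins that coat snoRNAs, few genes passed the test and all were lower on average. Of 13 measured genes of the box C/D particle and its assembly, 1 fell and none rose in the authors' deposited table. All 13 had a negative log2 fold change, with a median of -0.65. Over all transcripts 1.85% were called lower and 3.62% higher. Of symbols with a mean of at least 50, 59.2% were negative, with a median of -0.12. Nop58, a core box C/D protein, fell 1.89-fold (adjusted p = 0.0227 in the authors' deposited table), from 1690.1 and 2099 with EtOH to 831 and 1172 with OHT. Of 6 genes of the box H/ACA particle, 2 fell and none rose, with a median of -0.70. Dkc1, the pseudouridine synthase of the particle, fell 2.11-fold (adjusted p = 0.00379 in the authors' deposited table), from 1559 and 1792 to 642 and 941. Naf1, which assembles the particle, fell 1.91-fold (adjusted p = 0.0326 in the authors' deposited table). Limma-voom called 5 of the 13 and 3 of the 6 lower and none higher, beside 5.49% lower and 9.72% higher of all transcripts it fitted. No gene of either list was higher at an unadjusted p under 0.05 in the authors' deposited table.

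Of 33 measured protein-coding snoRNA hosts, mostly genes of ribosomal proteins and translation factors, 1 fell and none rose in the authors' deposited table, where 1.85% of all transcripts were called lower. Their median log2 fold change was -0.22, beside -0.12 for all symbols with a mean of at least 50, and that of each of the 33 was negative, as for 59.2% of those symbols. The 1 that fell was Wdr43, a small-subunit processome protein, at 1844 and 2117 with EtOH and at 865 and 1075 with OHT (2.04-fold, adjusted p = 0.00738). At an unadjusted p under 0.05 there, 5 of the 33 were lower and 0 higher, and limma-voom called 2 lower and none higher. EtOH library B was higher than EtOH library A in 31 of the 33, and in 8 of the 12 other non-coding hosts, not in Snhg14 (266 and 251) and Snhg10 (13.3 and 11.7), with both libraries at 0 for Rian and Snhg18. Whether the 2 kinds of host differ in fold change was not tested.

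Genes that act on TOP mRNAs and on decay did not pass the authors' test in either direction: none of 20 nonsense-mediated decay factors (median log2 fold change -0.45), none of 17 regulators of mTORC1 and TOP mRNAs (-0.26) and none of 10 measured members of the Myc network (0.29). At an unadjusted p under 0.05 there 3, 1 and 0 genes were lower and 0, 0 and 1 higher, and limma-voom called 2, 0 and 0 lower and 0, 0 and 1 higher. Smg1, a kinase of nonsense-mediated decay, was listed at 2274 and 1922 and Etf1, a translation release factor, at 2441 and 2047 in the authors' deposited table. Larp1, which binds the TOP tract, was listed at 3264 and 2182 and Pabpc1, a poly(A)-binding protein, at 4697 and 3938. Mxd1, a Myc antagonist, was listed at 900 and 1600 (adjusted p = 0.0550) and Mnt, another, at 666 and 718. The 4 falls named above were the only calls among 111 distinct genes of these 7 lists; limma-voom called 12 lower and 1 higher, with 0 lower without OHT library A and 26 lower without EtOH library A.

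**Figure D4:**
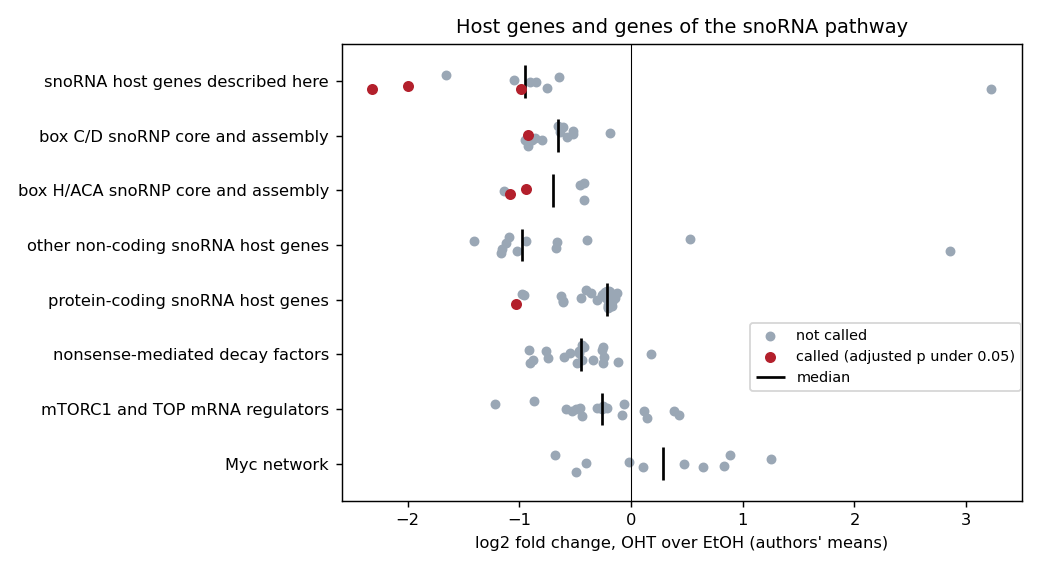
Log2 fold change (OHT over EtOH, from the authors' means, x axis) of the 10 host genes and of the members of 7 lists, each point 1 gene, red where the authors' test called it, with a black bar at the median. The medians run from -0.98 for other non-coding hosts to 0.29 for the Myc network.

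The genes beside the hosts had 10 negative and 7 positive log2 fold changes, beside 59.2% negative among symbols with a mean of at least 50. Of 19 protein-coding genes that lay nearest to a host on either side, 17 were measured, with a median log2 fold change of -0.16. Among these, 1 was called lower and 1 higher, beside 1.85% and 3.62% of all transcripts. Wdr74, a ribosome biogenesis protein gene beside Snhg1, fell 2.08-fold, from 654 and 865 with EtOH to 339 and 391 with OHT (adjusted p = 0.0140 in the authors' deposited table). Slc3a2, the amino acid transporter subunit on the other side of Snhg1, was listed at 106 and 115. Tcf24, a bHLH factor beside Snhg6, rose 2.54-fold, from 63.9 and 71.6 to 204 and 143 (adjusted p = 0.00839 in the authors' deposited table). The neighbours of Snhg11 were both lower on average, Lbp at 437 and 354 and Ralgapb at 1107 and 922 in the authors' deposited table. Trnau1ap beside Snhg12 was listed at 398 and 319, and Syncrip beside Snhg5 at 209 and 120. Beside Snhg4, Matr3 was listed at 2113 and 1580.0 and Sil1 at 360.3 and 452, and beside Snhg7, Dipk1b was listed at 127 and 147. The measured neighbours of Snhg3 (Rcc1 and Phactr4), Snhg5 (Zfp949) and Snhg8 (Prss12 and Ndst3) had means of 1.07 to 11.2 in the authors' deposited table. Lcn4 beside Snhg7 and Rab42 beside Snhg12 were not analysed here. The kit does not mark strand, and Mcmdc2 (listed at 84.0 and 75.1) overlaps Snhg6 and Zbtb37 (68.3 and 50.1) overlaps Gas5 in the annotation, so their reads cannot be fully told apart from those of the host.

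**Figure D5:**
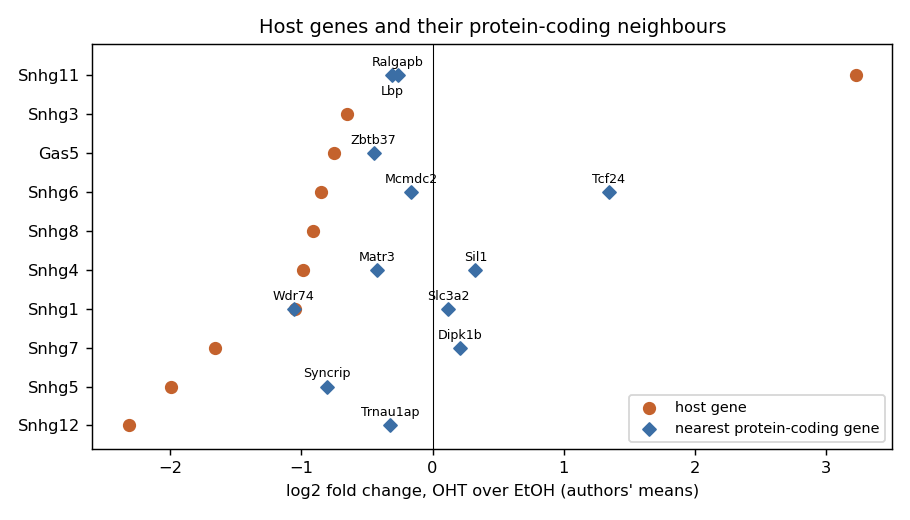
Log2 fold change (OHT over EtOH, from the authors' means, x axis) of each host gene (orange circles) and of its nearest protein-coding genes (blue diamonds, labelled), for the 12 neighbours with a mean of at least 50 in both groups. Wdr74 lies beside Snhg1 near -1.05, and Tcf24 at 1.34 lies on the other side of 0 from Snhg6.

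By Euclidean distance of centred log2 values over the 4 libraries, the symbols nearest to the mean profile of the 10 hosts, among those with a mean of at least 100, were the non-coding RNA 2810025M15Rik (0.0229), U2af1 (0.0404), Timm8a1 (0.0419), Pole3 (0.0543) and Haus4 (0.0585). The hosts themselves lay 0.126 (Snhg6) to 1.51 (Snhg12) from that profile, and Snhg11, which is averaged into it, lay at 4.05.

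Rnf2, which encodes RING1B, was at 687 and 583 with EtOH and at 716 and 797 with OHT, so its reads were not lower with OHT. Ring1, which encodes RING1A, was at 49.8 and 84.6 with EtOH and at 149 and 93.8 with OHT. The 2 Cdkn2a transcripts were at 59.7 and 37.8 and at 29.0 and 28.6 with EtOH, and at 43.7 and 51.4 and at 31.1 and 30.1 with OHT. Reads of each of these genes were thus present in every library, also of the 2 genes labelled -/-. The deleted parts of the alleles are not given, so these counts do not check the labels. Of myeloid markers all 13 were measured, with summed values of 5928 and 7391 with EtOH and 8754 and 8075 with OHT, 10 with a higher and 3 with a lower mean with OHT. Lyz2, lysozyme of macrophages and neutrophils, was the 1 marker of them that passed the authors' test, and rose 2.41-fold in the authors' deposited table. Chosen after its values were seen, Csf1r, a receptor of macrophages, was listed at 177 and 1110 there (adjusted p = 0.0666). The granule proteases Ctsg and Prtn3, chosen likewise, were listed at 1054 and 704 and at 861 and 646. Of the other granule protein genes in the list, Elane was listed at 320 and 333 and Mpo at 90.3 and 202. The libraries of the 2 groups overlapped for Prtn3, Elane and Mpo. Markers of other cell types summed to at most 17.4 with EtOH and 91.5 with OHT for erythroid cells (3 of 6 measured, Epor called higher), 5.88 in any library for T cells (3 of 6), 189 for B cells (3 of 5, mostly Cd79b) and 51.4 for stroma and endothelium (6 of 6, Col1a1 called higher). A further 8 markers were not analysed here. The part of these marker changes in the host values was not tested.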

How the data were processed

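RNA-seq libraries of 4 samples, 2 per treatment, were made with TruSeq version 2 chemistry, per the labels' protocols. TopHat, DESeq and build mm9 are named in the submitters' processing notes, and the read counter is not given in the sources used here. The deposited signal columns hold group means of normalised reads; the deposited ratio and log2 columns compare them, OHT over EtOH; the deposited p-value columns come from the authors' test, whose settings are not stated. Each mean was solved for the whole reads of its 2 libraries, with 1 read added per library by the authors as the values show; the solution was unique for 100% of 18061 transcripts, and 100% of 2000 simulated means per group were recovered. Size factors were 1.21, 0.768, 1.19 and 0.896. These reads were fitted with limma-voom (limma 3.58.1), for transcripts with at least 10 reads in 2 libraries, with Benjamini-Hochberg adjustment. On simulated reads of this comparison, at 11309 transcripts, it recovered 4%, 30%, 98% and 100% of 1.5-, 2-, 4- and 8-fold changes, 50 of each. The planned calls are those of the authors' own test.

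Members and lists were chosen with earlier results of these data known. Besides all members, the text names the nearest protein-coding neighbours, up to 4 called genes of each list by smallest adjusted p (or the 2 of highest mean), the targeted genes, and the 5 genes nearest in profile; 1 neighbour is not reported here. List genes were matched by current or older symbol or accession to RefSeq, and Nolc1, Rabggtb and Myc were not analysed here, like 8 of the markers. Sequences come from RefSeq (GRCm38.p6) and GENCODE; as the files follow mm9, no other coordinates are given.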

Additional observations from a re-analysis of the deposited data

How the results depend on the processing

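No paired analysis was possible because the columns carry no replicate numbers, so the replicate block was not run. None of the 100 recomputed host fold changes reversed, and the 6 that moved by more than the SD between libraries each had 1 library left out. Leaving out 1 library could not reverse a host, because its groups did not overlap. Each host had 1 transcript and a mean of at least 50, so the settings on these points returned the main value. The lack of reversals is therefore no check on direction. The median of the 10 hosts ran from -1.19 to -0.68 with 1 library left out, and was -0.90 by total reads, -0.92 with TMM scaling and -0.91 with a pseudocount of 10. Hosts called lower numbered 3 in the authors' table, 6 with limma-voom, 7 with no filter, 6 with TMM and 2 to 9 with 1 library left out; hosts called higher numbered 0, and 1 in each limma-voom fit. Over all transcripts the authors' calls were 654 higher and 335 lower. Limma-voom gave 1102 and 623, 1646 and 800 with no filter, 1231 and 559 with TMM, and 533 to 1717 higher and 112 to 1112 lower with 1 library left out. List genes called lower numbered 4, with 9 at an adjusted p under 0.1, 12 with limma-voom and 0 to 26 with 1 library left out; those called higher numbered 0, with 1, 1 and 0 to 3. Fits differ in test and in the libraries used; the cause of each difference was not tested. In the simulated reads limma-voom recovered 4% of 1.5-fold and 30% of 2-fold changes. In the data it called 5 of the 13 box C/D genes lower, each by less than 2-fold. The simulated reads had the same dispersion for all transcripts and gave 125 calls, of which 7.2% were false. In the data limma-voom called 1102 higher and 623 lower. The simulated shares thus do not carry over to these data.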
